A study of Mus musculus with 2 samples.

Results

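The 10 genes described here are the transcription factor gene Myc, its partner Max, and 8 genes that make, modify or regulate polyamines: Odc1, Amd1, Srm, Sms, Sat1, Azin1, Oaz1 and Oaz2. They were chosen by gene symbol, and all 10 are among the 12707 genes of the deposited table. RNA was sequenced from live CD45-negative cells sorted from Py8119 tumours, 1 library from mice with wild-type Mtdh (Mtdh wild type, WT) and 1 from mice lacking Mtdh (Mtdh knock out, KO). Py8119 is a mouse mammary tumour cell line, and Mtdh encodes metadherin, a protein that promotes mammary tumour growth. The injected tumour cells had wild-type Mtdh in both libraries, and each library is called by its host. Paired values below give the wild-type host first. The labels do not give host age, sex, the knockout allele or the number of tumours behind each library. Recovered reads numbered 26069380 (wild-type host) and 23381864 (knockout host). There was 1 library per genotype, so the differences below are descriptions of these libraries, with no replicate spread to set them against.

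Polyamines are small positively charged molecules that bind RNA and DNA, and growing cells need them. Odc1 makes putrescine from ornithine and is the rate-limiting step. Amd1 supplies the aminopropyl donor, Srm uses it to make spermidine, and Sms uses it to make spermine. Sat1 acetylates spermidine and spermine, which marks them for export or back-conversion. Antizymes, encoded by Oaz1 and Oaz2, bind the ODC protein and send it to the proteasome, and the antizyme inhibitor encoded by Azin1 binds antizyme in its place. MYC and MAX bind DNA together at E-box sequences, and Odc1 is a textbook MYC target that is often high in tumours.

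The antizyme messages carry a site at which the ribosome must slip into the next reading frame to pass a stop codon, and polyamines promote that slip. Both sites are shown because Oaz1 and Oaz2, at 11.2 and 8.71 Oaz1 reads per Oaz2 read in the wild-type-host and knockout-host libraries, share this control. They are 30-base windows of the transcripts in GENCODE M21 (GRCm38), written 5′ to 3′ in T, and the capitals mark the slip site with its TGA stop.
Oaz1: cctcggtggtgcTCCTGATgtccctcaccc
Oaz2: cctctgtggtgcTCCTGATgcccctcaccc
Of the 30 bases 28 are the same. Counted from 1 at the 5′ end, with the Oaz1 base first, the differences are G5T and T21C, both outside the slip site. Both windows were found by searching for the same slip site and the bases just before it, so no difference could appear there.

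Promoter windows of RefSeq (GRCm38.p6, 250 bases before to 50 after a gene's start) were matched for 7 of the 10 genes, with 8 windows in all. Myc, Srm and Azin1 had no match. The canonical E-box CACGTG, which reads the same on both strands, was in a window of Max and a window of Sms, against 7.15% of all 32851 windows. The variant CACGCG, on either strand, was in windows of Odc1, Oaz1 and Sms, against 9.27% of all windows. The variant CATGTG, on either strand, was in the Sat1 window alone, against 14.2% of all windows. Amd1 and Oaz2 had none of the 3. The windows of Odc1, the most abundant of the 10 messages, and of Max, whose E-box lies across the start, are shown on the strand of the gene with motifs in capitals. They are chr12:17544623-17544922 (plus strand) and chr12:76962199-76962498 (minus strand).
Odc1: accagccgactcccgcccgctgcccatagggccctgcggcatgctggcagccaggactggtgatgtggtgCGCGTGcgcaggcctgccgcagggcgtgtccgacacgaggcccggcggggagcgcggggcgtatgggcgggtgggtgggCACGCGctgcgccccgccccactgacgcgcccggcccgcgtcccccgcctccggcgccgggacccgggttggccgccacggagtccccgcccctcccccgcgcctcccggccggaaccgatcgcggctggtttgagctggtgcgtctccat
Max: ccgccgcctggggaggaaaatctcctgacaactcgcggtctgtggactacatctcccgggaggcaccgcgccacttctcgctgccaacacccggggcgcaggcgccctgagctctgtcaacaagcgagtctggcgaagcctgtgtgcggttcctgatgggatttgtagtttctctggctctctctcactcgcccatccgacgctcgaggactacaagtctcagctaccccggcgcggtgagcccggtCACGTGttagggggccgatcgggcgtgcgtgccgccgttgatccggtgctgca
In Odc1 the motifs begin 180 and 101 bases before the start, the first of them on the opposite strand. In Max the motif begins 3 bases before the start. These are letters in a window, and binding was not measured. Sequence outside the windows, including the rest of each gene, was not searched.

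Most of the 10 genes were higher in the knockout-host library. In the deposited log2(FPKM + 1) values (FPKM is fragments per kilobase, scaled to the library total), 8 were above 0 and 2 below in the difference of knockout minus wild-type host. Of all 6057 genes whose mean log2 value was at least 1, 46.5% were above 0. The median difference was 0.33 over the 10 genes and -0.03 over the 6057. Srm alone passed the size rule, a difference of 1 or more in genes with a mean of 1 or more. That is 1 of 10 higher and 0 of 10 lower, where 2.31% of the 6057 genes were higher and 2.64% lower by this rule. The 10 messages together took 1911 reads per 1000000 recovered reads (RPM) in the wild-type-host library and 2621 in the knockout-host library.

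**Figure D1:**
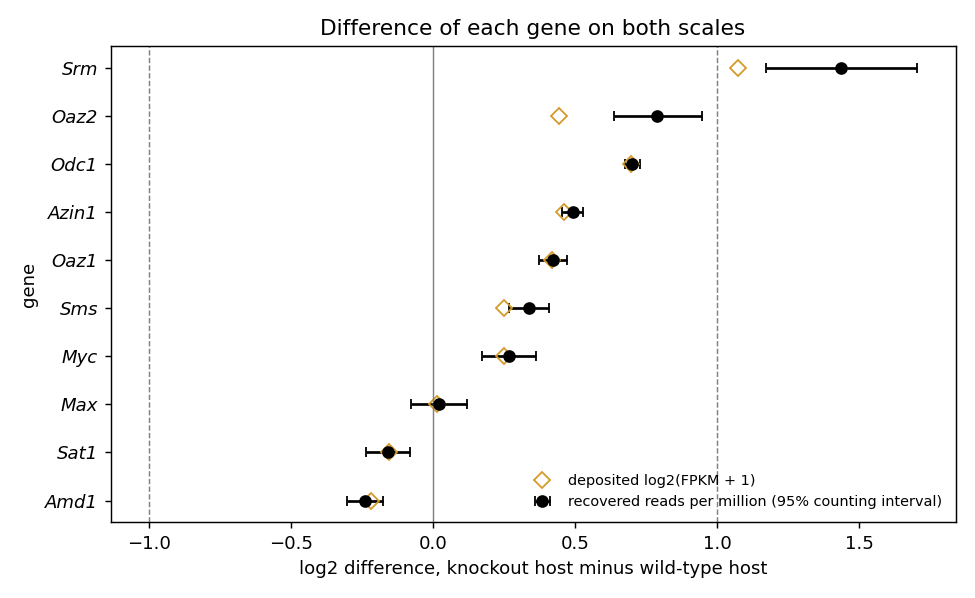
Difference of each gene between the libraries (x axis, log2, knockout host minus wild-type host) on the deposited log2(FPKM + 1) scale (diamonds) and as the ratio of RPM (points, bars are 95% counting intervals), with dashed lines at 1 and -1. Srm lies past 1 on both scales, 6 genes lie between 0.25 and 0.79, the interval of Max spans 0, and Sat1 and Amd1 lie below 0.

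Odc1, ornithine decarboxylase (ENSMUSG00000011179, mm39 chromosome 12, 17594795 to 17601507), was the most abundant of the 10 and was higher in the knockout-host library. It was at FPKM 98.4 in the wild-type-host library and 160.1 in the knockout-host library, a log2 difference of 0.70. Its reads were 17216 and 25133, which is 660.4 and 1075 RPM, or 1.63-fold higher. The 95% counting interval of that ratio was 1.60 to 1.66. Like all intervals given here it covers counting error only, since there was 1 library per genotype. The labels name no molecular identifiers that would separate PCR copies, so copies may be counted as reads of their own. Among 1118 genes with 10000 to 100000 reads over both libraries, 46 (4.11%) had a ratio as high or higher.

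Srm, spermidine synthase (ENSMUSG00000006442, chromosome 4, 148675960 to 148679451), had the largest ratio and the fewest reads. It was at FPKM 1.85 and 4.998, a log2 difference of 1.08. Its reads were 168 and 408, 2.71-fold higher in the knockout-host library (95% counting interval 2.26 to 3.26). Genes of this depth varied widely: of 2602 genes with 300 to 1000 reads in total, 12.9% were 2-fold or more higher and 6.46% had a ratio as high as that of Srm. By the same read rule, 8.91% of the 10814 genes with 100 reads or more were 2-fold or more higher.

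Sms, spermine synthase (ENSMUSG00000071708, chromosome X, 156226851 to 156275284), was at FPKM 2.47 and 3.12, a log2 difference of 0.25. Its reads were 3114 and 3532, 1.26-fold higher (95% counting interval 1.20 to 1.33). Of 2487 genes with 3000 to 10000 reads in total, 16.8% had a ratio as high or higher, so a difference like that of Sms was common. Both synthases were therefore on the higher side, Srm by more. Within a library, where the scaling of the libraries cancels, Srm made up 5.12% of the summed Srm and Sms reads in the wild-type-host library (exact binomial interval 4.39 to 5.93) and 10.4% in the knockout-host library (9.42 to 11.35).

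Amd1, S-adenosylmethionine decarboxylase (ENSMUSG00000075232, chromosome 10, 40163454 to 40178185), went the other way. It was at FPKM 11.7 and 9.90, a log2 difference of -0.22, with 4487 and 3411 reads. The ratio was 0.848 (95% counting interval 0.810 to 0.886), and 30.3% of 2487 genes with 3000 to 10000 reads had a ratio at least as low. The assignment of its reads is uncertain because Amd2 is a near-identical copy: 3190 of 3204 aligned bases of their main transcripts are the same (99.6%). Amd2 was listed at 0 reads in the wild-type-host library and about 120 in the knockout-host library, and Amd1 and Amd2 summed had a ratio of 0.877 (0.839 to 0.917).

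Sat1, spermidine/spermine N1-acetyltransferase (ENSMUSG00000025283, chromosome X, 153996128 to 153999446), was also slightly lower. It was at FPKM 35.0 and 31.4, a log2 difference of -0.15, with 3028 and 2433 reads. The ratio was 0.896 (95% counting interval 0.849 to 0.945), and 38.5% of genes of this depth had a ratio at least as low. Ratios as low as those of Amd1 and Sat1 were thus common at this depth.

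Among the 10 genes, those that control the ODC protein were higher on both sides of the balance, inhibitor and antizymes alike. Azin1, the antizyme inhibitor (ENSMUSG00000037458, chromosome 15, 38487671 to 38519511), was at FPKM 13.8 and 19.4, a log2 difference of 0.46. Its reads were 11429 and 14415, 1.41-fold higher (95% counting interval 1.37 to 1.44), and 7.51% of the 1118 genes with 10000 to 100000 reads had a ratio as high or higher. Azin2, another antizyme inhibitor gene outside the 10 and with a mean below 1, went the other way. It had 656 and about 452 reads, a ratio of 0.767 (95% counting interval 0.680 to 0.867).

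Oaz1, the main antizyme (ENSMUSG00000035242, chromosome 10, 80662490 to 80665125), was at FPKM 92.3 and 123.7, a log2 difference of 0.42. Its reads were 6339 and 7620, 1.34-fold higher (95% counting interval 1.30 to 1.39), and 9.48% of those 1118 genes had a ratio as high or higher. Oaz2, the minor antizyme (ENSMUSG00000040652, chromosome 9, 65575283 to 65597583), was at FPKM 0.970 and 1.68, a log2 difference of 0.44. Its reads were 564 and 875, 1.73-fold higher (1.55 to 1.93), and 7.26% of 2989 genes with 1000 to 3000 reads had a ratio as high. The log2 difference of Oaz2 is far below its read ratio because the value of 1 added to FPKM is as large as its level. Oaz1 gave 91.8% of antizyme reads in the wild-type-host library and 89.7% in the knockout-host library.

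The balance of reads of these genes within each library was compared for pairs chosen after their values were seen. The shares are not corrected for message length, so they compare the 2 libraries and do not rank the messages. In RPM per kilobase of exon, Oaz1 (226.4 and 303.4) was above Azin1 (87.1 and 122.5) in both libraries. Odc1 made up 73.1% of the summed Odc1 and Oaz1 reads in the wild-type-host library (exact binomial interval 72.5 to 73.7) and 76.7% in the knockout-host library (76.3 to 77.2). That is 2.72 and 3.30 Odc1 reads per Oaz1 read. Azin1 made up 64.3% (63.6 to 65.0) and 65.4% (64.8 to 66.05) of the summed Azin1 and Oaz1 reads, intervals that overlap. Odc1 differed more against Amd1, at 3.84 reads per Amd1 read in the wild-type-host library and 7.37 in the knockout-host library. Sat1 made up 14.96% of the summed Sat1 and Odc1 reads in the first library and 8.83% in the second. The 4 synthesis genes Odc1, Amd1, Srm and Sms summed to 958.4 and 1389 RPM, but without Odc1 the other 3 summed to 298.0 and 314.4 RPM, a ratio of 1.06 (95% counting interval 1.02 to 1.09). Odc1 thus accounted for most of the summed difference in this branch.

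Levels of different genes were compared per kilobase of exon, with exon lengths matched by gene identifier to GENCODE M21, because the deposited FPKM uses the genomic span. All recovered reads of a gene were divided by its exon length, and whether some of them lay in introns was not tested. In RPM per kilobase of exon, Odc1 was highest in both libraries, at 299.1 and 486.8, followed by Oaz1 at 226.4 and 303.4. Next came Sat1 (98.2 and 88.0) and Azin1 (87.1 and 122.5), with Sat1 above Azin1 in the wild-type-host library and Azin1 above Sat1 in the knockout-host library. Amd1 followed in both, at 53.7 and 45.5. Max (34.05 and 34.6), Sms (32.1 and 40.6) and Myc (27.3 and 32.8) lay close together, with counting intervals that overlapped between Max and Sms in the wild-type-host library and between Max and Myc in the knockout-host library. Oaz2 (10.6 and 18.4) and Srm (4.82 and 13.04) were lowest in both libraries. So the synthase for spermidine had the scarcest message of the 10, and the decarboxylase that starts the pathway the most abundant.

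**Figure D2:**
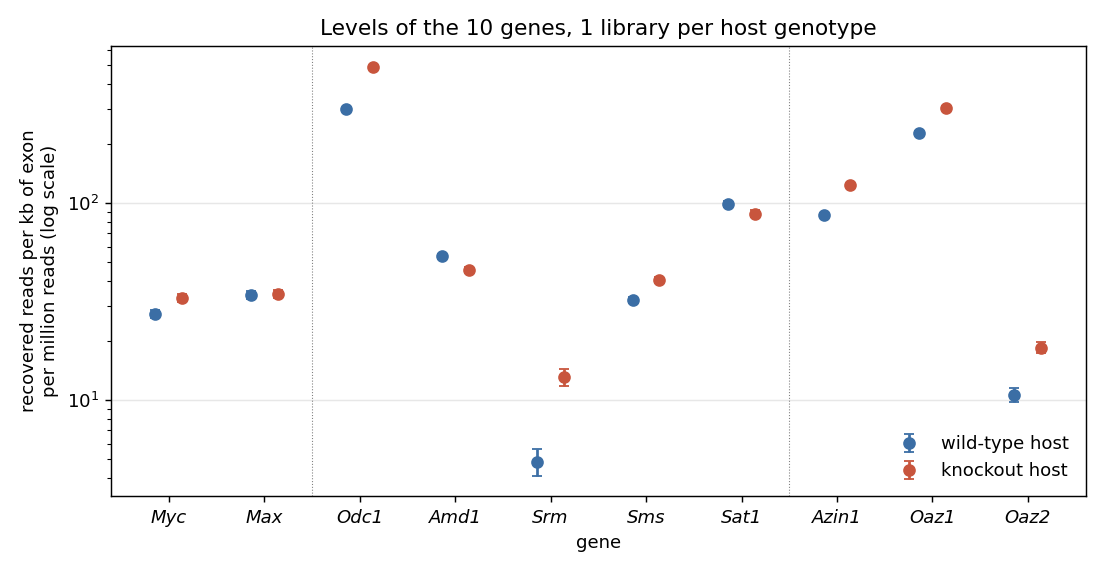
RPM per kilobase of exon (y axis, log scale) of each gene in the wild-type-host library (blue) and the knockout-host library (red), with 95% counting intervals as bars and 1 library per genotype. Odc1 is highest, at 299.1 and 486.8, Srm is lowest, at 4.82 and 13.04, and Amd1 and Sat1 are the genes whose red point lies below the blue.

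Myc (ENSMUSG00000022346, chromosome 15, 61857240 to 61862224) was a little higher in the knockout-host library. It was at FPKM 13.4 and 16.1, a log2 difference of 0.25, with 1739 and 1878 reads, 1.20-fold higher (95% counting interval 1.13 to 1.29). Of 2487 genes with 3000 to 10000 reads in total, 21.0% had a ratio as high or higher, so this size of difference was common. Max (ENSMUSG00000059436, chromosome 12, 76984043 to 77008976), the obligate DNA-binding partner of MYC, was at FPKM 2.67 and 2.71 with 1738 and 1582 reads. Its ratio was 1.01 (0.947 to 1.09), a counting interval that spans 1. Myc made up 50.0% of summed Myc and Max reads in the wild-type-host library (48.3 to 51.7) and 54.3% in the knockout-host library (52.6 to 56.0).

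**Figure D3:**
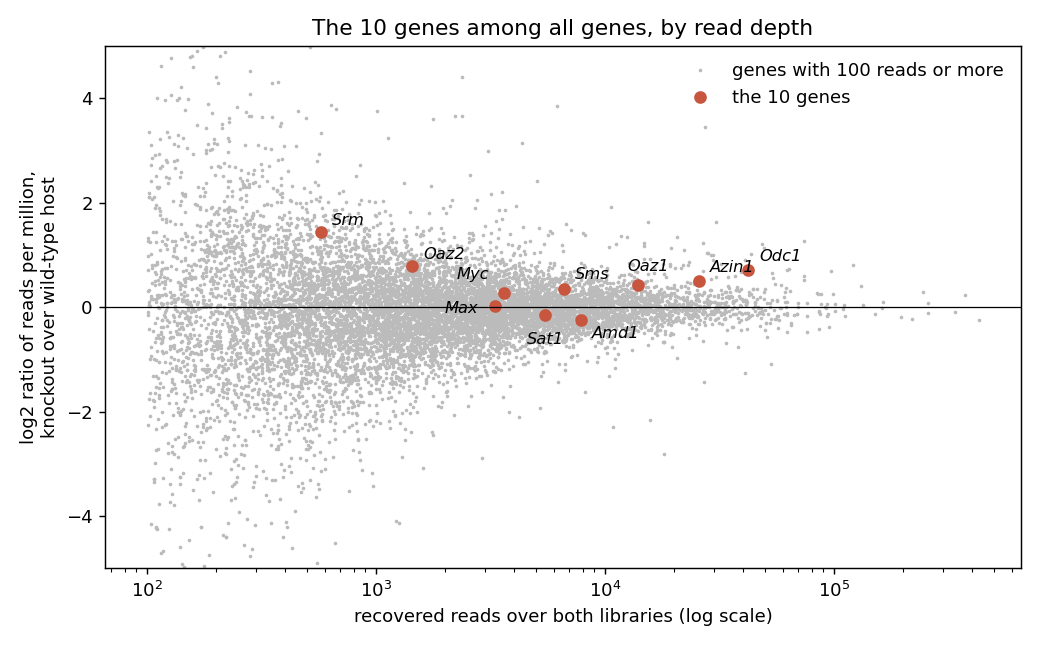
Log2 ratio of RPM, knockout over wild-type host (y axis), against recovered reads over both libraries (x axis, log scale) for genes with 100 reads or more (grey, 163 of 10648 with reads in both libraries lie beyond the axis) and for the 10 genes (red). The grey cloud narrows with depth: Srm lies inside the wide part, where 6.46% of genes had a ratio as high, and Odc1 near the upper edge of the narrow part, where 4.11% did.

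Spermidine is consumed to make hypusine, the modified lysine of the translation factor eIF5A, and all 3 measured genes of that step were above 0 too. Dhps, deoxyhypusine synthase, which takes spermidine as its substrate, was at FPKM 1.71 and 4.47, a log2 difference of 1.01, with 152 and 356 reads. Eif5a itself was at FPKM 94.1 and 115.3, a difference of 0.29, and Eif5a2 at 1.30 and 2.21, a difference of 0.48. The median of the list was 0.48, and 1 of 3 passed the size rule as higher and 0 as lower. For this list and those below, the shares over the 6057 genes were 2.31% higher, 2.64% lower and 46.5% above 0. Dhps has few reads, like Srm, and of genes with 300 to 1000 reads in total 12.9% were 2-fold or more higher.

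Genes that feed the pathway did not move one way. For ornithine and arginine supply, 0 of 6 measured genes passed the size rule in either direction, with 3 above 0, 3 below and a median of -0.03. Oat, which interconverts ornithine and proline precursors, was at FPKM 4.20 and 2.71, a difference of -0.49. Slc7a2, a cationic amino acid transporter, was at 2.40 and 1.12, a difference of -0.68, while Pycr1, a proline synthesis enzyme, was at 0.843 and 2.53, a difference of 0.94. For the methionine cycle and salvage, 0 of 11 passed in either direction, with 4 above 0, 7 below and a median of -0.21. Mat2a, which makes the S-adenosylmethionine that Amd1 uses, was at FPKM 50.1 and 51.8, a difference of 0.05. Ahcy, which clears S-adenosylhomocysteine, was at -0.57, its relative Ahcyl1 at -0.44 and the transaminase Got1 at 0.46.

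Of 5 measured genes of polyamine catabolism, transport and further regulation, 0 passed the size rule in either direction and the median was -0.10. Atp13a3, a polyamine transporter, was at a difference of 0.12. Cav1 and Gpc1, a caveolar protein and a proteoglycan linked to polyamine uptake, were at -0.40 and -0.21, and Slc3a2, the heavy chain of amino acid transporters, at 0.05. Smox and Sat2 were not analysed here.

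MYC partners and MYC targets were centred near 0. Of 11 measured network partners, 0 passed the size rule in either direction, and the median was -0.06. Mnt, a repressor that competes for MAX, was at a difference of 0.31, Mlx at 0.11, Wdr5 at -0.31 and Hcfc1 at -0.47. Of 57 measured targets of ribosome biogenesis and growth, 1 was higher, 2 were lower, and the median was -0.04, with 28 above 0 and 29 below. Hk2, a hexokinase, was higher at 1.10, and Ipo4, an importin, and Tbrg4, a mitochondrial RNA-binding protein, were lower at -1.25 and -1.08. Npm1, a nucleolar protein and the highest of the list, was at -0.24, and the translation helicase Eif4a1 at 0.27. Of 21 measured genes of MYC turnover and upstream control, 1 was higher, 0 were lower and the median was -0.02. Pim1, a kinase that can stabilise MYC, had 864 and 2813 reads and a difference of 1.71, while Pim3 was at -0.43. Of the ubiquitin ligases named by the rule, Trim32 was at 0.93 and Stub1 at -0.64, and Set, an inhibitor of a phosphatase that acts on MYC, was at 0.01.

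**Figure D4:**
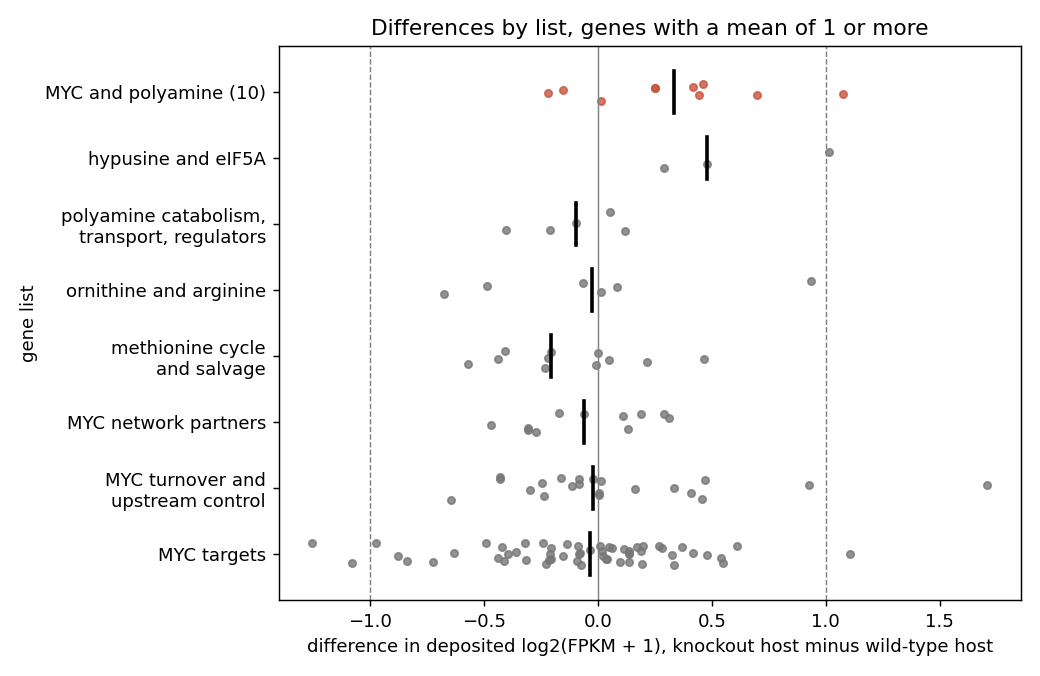
Difference in deposited log2(FPKM + 1), knockout host minus wild-type host (x axis), of each gene with a mean of 1 or more, by list (y axis, 1 point per gene, vertical jitter only for display), with black bars at the medians and dashed lines at 1 and -1. The 10 genes have a median of 0.33 and the hypusine list 0.48, while the 57 MYC targets have a median of -0.04.

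Markers of other cells in the gate differed between the libraries. The listed fibroblast markers all had lower RPM in the knockout-host library, while each other list held genes in both directions. Of 12 fibroblast markers 10 were listed, summing to 2634 and 970.1 RPM. Col1a1 was at 16111 and 2059 reads, while Pdgfra was at 5834 and 5056. Of 10 pericyte and smooth muscle markers 6 were listed, summing to 425.3 and 94.2 RPM. Pdgfrb was at 9206 and 1691 reads and Cspg4 was listed at 190 and 0, while Abcc9 was at 1 and 56. In bulk RNA, fewer cells of a type and less RNA per cell cannot be told apart.

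Of 12 mammary tumour markers 10 were listed, summing to 9883 and 9578 RPM, most of it Fn1 (123660 and 95174 reads) and Vim (82646 and 67960). The epithelial markers Krt8, Krt18, Epcam and Cdh1 had more reads per library total in the knockout-host library. Krt8 had a read ratio of 1.42, Krt18 of 1.57, Epcam of 3.06 and Cdh1 of 1.67, the last 2 from 55 and 151 and from 134 and 201 reads. The rise was not limited to epithelial markers, since Cd44 had a ratio of 1.44, while Cdh2 was close to 1 at 1.04. Vim (0.917), Fn1 (0.858), Zeb1 (0.933) and Twist1 (0.920) were lower. The epithelial keratins Krt5 and Krt14 were not analysed.

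Leukocyte and endothelial markers were low. Of 16 pan-leukocyte markers 15 were listed, at 36.4 and 32.8 RPM summed, with Ptprc at 46 and 64 reads. Of 12 endothelial markers 3 were listed, at 18.3 and 14.2 RPM summed: Pecam1 had 129 and 128 reads, Plvap 348 and 58, and Cdh5 1 and 146. The 12 macrophage and monocyte markers summed to 198.3 and 225.6 RPM, most of it Lyz2 (3504 and 3471 reads). In that list Mpeg1 was at 378 and 952 reads and past the size rule at 1.25, Cd68 at 33 and 70, and Itgam at 237 and 25. The part of any of these cells in the differences of the 10 genes was not tested. Markers other than Ptprc, Pecam1, Pdgfrb and Col1a1 were named after their values were seen. Mtdh itself was at FPKM 17.3 and 15.7, and since the injected cells carry the gene this is a weak check of the host label.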

How the data were processed

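Per the labels' protocols, tumours were dissociated, live CD45-negative cells were sorted, ribosomal RNA was removed and libraries were made with PrepX chemistry. The authors deposited log2 values, described as log2(FPKM + 1). STAR 2.7.8a, Partek and mm39 are named in the submitters' processing notes; strand and multiple-mapping rules are not stated there. FPKM multiplied by the length column summed to 1000000 per library, and length was the genomic span in 100% of rows, so deposited differences understate changes of long or low genes. Reads were recovered from the steps of low values. Under 1000 reads, 84.9% (wild-type host) and 83.4% (knockout host) of values lay within 0.1 of a whole read, and how the authors' counting gave the other values was not tested. Odc1, Sms, Amd1 and Oaz1 had a value further than this from a whole read in 1 library, by more than the rounding of the printed digits allows. A value of 0 can be a failed estimate.

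With 1 library per genotype no p-value was computed. The read recovery and the ratio intervals were tested on simulated data. The simulated counts were all whole and varied by counting alone, so values that are not whole and other variation were not covered. Ratio intervals are exact conditional binomial, 95%; levels have exact Poisson intervals (scipy 1.17.1). The size rule was a deposited log2 difference of 1 or more with a mean of 1 or more. The genes and lists were chosen with earlier results of these data known. Genes named are the 10, and from each pathway list the 3 with the largest difference and the 2 with the highest mean, besides a few markers and Mtdh. Genes outside this rule (Amd2, Azin2, Smox, Sat2 and most markers) were chosen after their values were seen. Alternatives were another added value, the read scale, centring, quantile normalization, other filters and whole reads only. The planned comparison of protein sequences was not run.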

Additional observations from a re-analysis of the deposited data

How the results depend on the processing

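No paired analysis was possible because each host genotype had 1 library, and no library could be left out. The sign of each of the 10 differences was the same under the 5 alternatives run for single genes (50 of 50 values). Most of these could not have come out otherwise. Another added value or the read scale cannot change a sign. Centring subtracted a median of -0.03, too small to turn either negative difference. Only quantile normalization could have changed a sign. The count of 1 gene past the size rule, Srm, became 0 with 5 added in place of 1 and 0 with a mean of 3 or more, which leaves 6 of the 10 genes and removes Srm. The median of the 10 was 0.18 with 5 added, and lay between 0.32 and 0.38 under the other 7 alternatives. Odc1 ranged from 0.58 to 0.73, Srm from 0.55 to 1.44 and Oaz2 from 0.16 to 0.79. Over all genes, 140 were higher and 160 lower, against 285 and 332 with 0.1 added, 41 and 30 with 5 added, 294 and 349 on the read scale, and 39 and 28 with a mean of 3 or more. Whole reads only left 6 of the 10 genes, with a median of 0.35, and 90 and 111 genes past the rule. Srm rests on 168 and 408 reads.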

Other observations

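Several genes next to the pathway had a mean below 1 and were kept out of the counts above; they were chosen after their values were seen. Nos2, which consumes arginine to make nitric oxide, had 1 and 388 reads, a ratio of 433 (95% counting interval 77.2 to 17130). Arg1, which makes ornithine from arginine, had 63 reads for the wild-type host and was listed at 0 for the knockout host. These 2 enzymes use the same substrate, and Nos2 had nearly all its reads in the knockout-host library while Arg1 had reads in the wild-type-host library alone. Dohh, which completes hypusine, had about 2 and 118 reads (ratio 70.4, 17.8 to 549.5), on the same side as Dhps. Slc18b1, a vesicular polyamine transporter, had 133 and 359 reads, 3.01-fold higher (2.46 to 3.70). Of 2602 genes with 300 to 1000 reads in total, the range of Slc18b1 and Nos2, 12.9% were 2-fold or more higher. In the MYC family, Mycn had 7 and 77 reads, and Mxd3, a MAX-binding repressor, had 55 reads and 1 read. None of these has a replicate check. Markers of other cells also had nearly all their reads in 1 library, such as Fap (fibroblast, 91 and 1 reads) and Cdh5 (endothelial, 1 and 146 reads). Whether the differences of Nos2, Arg1 and Dohh exceed those of other genes of their depth was not tested.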
